A study of Mus musculus with 8 samples.

Results

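Contactins and contactin-associated proteins are cell adhesion molecules of the neuronal surface, and their transcripts were followed here in cultured neurons with and without the kinase NUAK1. The rows of the count table whose Ensembl identifier maps to 10 gene symbols were taken, 6 contactins (Cntn1 to Cntn6) and 4 contactin-associated proteins (Cntnap1, Cntnap2, Cntnap4 and Cntnap5a), out of 32726 identifiers. All 10 were among the 16272 genes that passed the filter on low counts and were tested. The other 3 contactin-associated genes of the mouse, Cntnap3, Cntnap5b and Cntnap5c, were read beside them.

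RNA sequencing was performed on poly-A RNA of neurons kept for 5 days in culture, a stage at which axons are growing. The study compared Nuak1 knockout (KO) neurons with wild-type (WT) neurons, and the labels name no other allele and no treatment. The study describes a constitutive knockout line and cultures made from embryos without serum. Each genotype had 4 libraries, KO1 to KO4 in one and WT1 to WT4 in the other, and the study's methods give 4 animals per condition. The p-values of the main test below measure the spread between these libraries that its surrogate variable, described below, leaves. The SDs of CPM keep the whole spread. Every tissue label reads cortex or hippocampus, so no region is given to a single library. The labels also hold a sequencing lane (A for KO1, KO4, WT1 and WT3, B for the others) and a strain code whose meaning is not explained (BJ for KO1 to KO3, BK for KO4, WT2 and WT4, BO for WT1 and BQ for WT3). Only code BK occurs in both genotypes, so code and genotype cannot be fully separated. Total counts were 31247078 to 67155004 per library. Nuak1 itself was at 1.96 to 2.72 counts per 1e+06 counts of the library (CPM) for KO and 51.6 to 82.6 CPM for WT, with a log2 fold change of −4.89 (edgeR quasi-likelihood test, Benjamini-Hochberg adjusted p 1.24e-07, SE 0.13). KO1 and WT1 stood apart from the other 6 libraries on the first principal component, at −25.4 and −27.4 against 1.21 to 18.3, and the 1 surrogate variable in the test, a covariate estimated from the counts, separated the same pair.

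Contactins are chains of immunoglobulin and fibronectin domains held in the membrane by a lipid anchor. They have no cytoplasmic part of their own and act with membrane partners, among them the contactin-associated proteins, the L1 family and receptor tyrosine phosphatases. Contactin-associated proteins span the membrane and resemble neurexins outside the cell. On myelinated axons Cntn1 with Cntnap1 builds the paranodal junction next to the node of Ranvier, and Cntn2 with Cntnap2 gathers potassium channels beside it, whereas in young neurons without myelin several members serve axon growth, fasciculation and synapse formation.

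Cntn1 was by far the most abundant of the 10 transcripts, and Cntn4 and Cntnap1 were the scarcest. Levels of different genes were compared as CPM per kilobase of exon, so that a long transcript does not count for more. Mean WT levels on this scale were 78.1 ± 18.4 for Cntn1, 18.5 ± 3.53 for Cntn2, 15.3 ± 3.23 for Cntn5, 13.3 ± 4.88 for Cntn6, 12.8 ± 1.097 for Cntnap2, 11.2 ± 1.83 for Cntnap4, 6.63 ± 1.16 for Cntnap5a, 5.68 ± 2.26 for Cntn3, 1.19 ± 0.336 for Cntn4 and 0.678 ± 0.223 for Cntnap1 (CPM per kilobase, SD, n = 4 each). In that order the WT ranges of neighbours were separate at 3 places, between Cntn1 and Cntn2, between Cntnap4 and Cntnap5a, and between Cntn3 and Cntn4, and they overlapped between all other neighbours. The places of the middle genes also depend on the length used, since Cntn6 moved from place 4 to place 2, at 23.4 CPM per kilobase, when the longest transcript replaced the union of exons. All 10 together took 0.105% to 0.161% of the counts of a library, and Cntn1 alone held 40.7% to 53.9% of their summed CPM per kilobase.

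**Figure D1:**
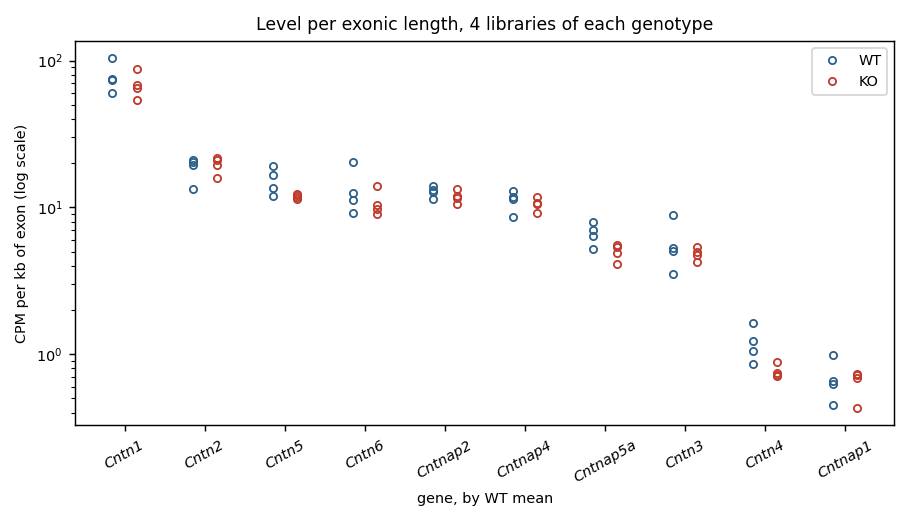
Level of each gene in CPM per kilobase of exon (log axis), with 1 open circle for each of the 4 WT (blue) and 4 KO (red) libraries and genes ordered by WT mean. Cntn1 lies between 53.7 and 104 in all 8 libraries, and Cntnap1 between 0.431 and 0.986.

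Between genotypes the family leaned one way. In KO, 9 of the 10 log2 fold changes were below 0, from −0.65 to 0.06, with a median of −0.23 against 0.015 over all 16272 tested genes. None of the 10 passed the adjusted threshold of 0.05 (edgeR quasi-likelihood test with Benjamini-Hochberg adjustment), which 8 genes passed in all, or 0.0492% of those tested, while 5 of the 10 and 10.6% of all tested genes had an unadjusted p under 0.05. Without the surrogate variable the same edgeR test gave such a p for 3 of the 10. Over all 16272 tested genes it gave 410, against 1728 with the variable. The study's lower threshold asks for a p under 0.05, taken here as unadjusted, and an absolute log2 fold change above 0.25. The study's own fit of these cultures gave fewer genes past this threshold than the 936 found here, so the calls are not equivalent. Cntn4, Cntn5, Cntn6 and Cntnap5a passed it, all lower in KO, which is 4 of 10 against 5.75% of all tested genes in either direction, 3.53% lower and 2.22% higher in KO. In plain CPM 0 of the 10 had every KO library below every WT library, a separation found in 0.86% of tested genes. A lower level in bulk RNA may come from fewer cells that express a gene or from less RNA per cell, and these cannot be told apart here. Library scaling matters for the background, since 61.3% of all calls at the lower threshold were lower in KO with TMM scaling and 41.3% with plain library totals, but the signs of all 10 fold changes were kept under both.

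**Figure D2:**
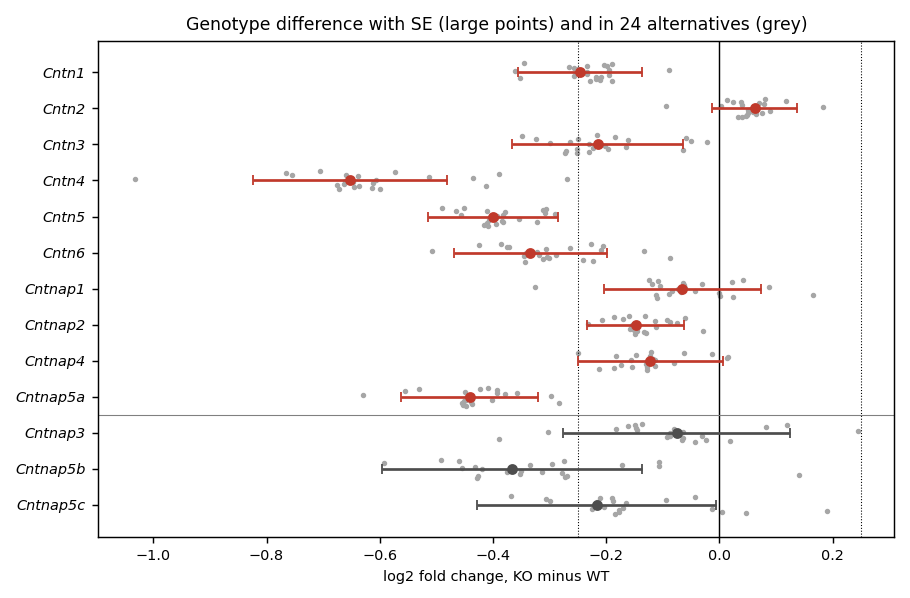
Log2 fold change of KO minus WT for the 10 genes (red) and the other 3 contactin-associated genes (dark grey, below the line), with its standard error as a bar, and the value in 24 alternative fits as small grey points. Dotted lines mark the study's fold threshold of 0.25 on either side, and Cntn4, Cntn5, Cntn6 and Cntnap5a lie furthest to the left among the 10.

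Cntn1, on chromosome 15 (GRCm38 92051152 to 92341967), binds receptor phosphatases and the L1 family and is the contactin partner of Cntnap1. Its levels were 820.2, 647, 611 and 506 CPM in KO1 to KO4 and 978, 709, 693 and 565 CPM in WT1 to WT4. The highest library of each genotype was replicate 1 and the genotypes overlapped widely. Its log2 fold change was −0.25 (edgeR quasi-likelihood p 0.0487, Benjamini-Hochberg adjusted p 0.468, SE 0.11), an absolute value just under 0.25, so that it did not pass the lower threshold. Cntn2, also called TAG-1, marks early growing axons and lies on chromosome 1 (132509425 to 132543251). It was at 150.1, 185, 202 and 208 CPM in KO and 127, 201, 186 and 193 CPM in WT. Here KO1 and WT1 were the lowest libraries, the reverse of Cntn1. Cntn2 was the only one of the 10 with a fold change above 0, at 0.06 (edgeR, Benjamini-Hochberg adjusted p 0.796, SE 0.075), well within the spread between replicates.

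Cntn3, Cntn6 and Cntn4 lie next to each other on chromosome 6, with Chl1, a gene of the L1 family, between Cntn3 and Cntn6, and Gm15631 between Cntn6 and Cntn4 among the tested genes. The log2 fold changes along this stretch (102163304 to 106700141) were −0.22 for Cntn3, −0.19 for Chl1, −0.33 for Cntn6, −0.04 for Gm15631 and −0.65 for Cntn4. Cntn3 (102163304 to 102564614) is found in subsets of neurons. It was at 27.8, 22.3, 24.6 and 26.0 CPM in KO1 to KO4 and at 46.2, 26.3, 18.4 and 27.5 CPM in WT1 to WT4. WT1 was far above and WT3 below all others, so that the WT libraries spanned the whole KO range, and the difference was smaller than this spread (edgeR, Benjamini-Hochberg adjusted p 0.635, SE 0.15). Without WT1 the Cntn3 value was −0.06.

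Cntn4 (chromosome 6, 105677632 to 106700141) binds the amyloid precursor protein and serves axon targeting. With all 8 libraries it showed the greatest fold change among the 10. It was at 6.03, 6.42, 7.60 and 6.15 CPM in KO1 to KO4, from 210 to 396 counts, and at 14.05, 7.28, 10.5 and 9.00 CPM in WT1 to WT4, from 342 to 499 counts. The KO libraries lay close together below 3 of the 4 WT libraries, and WT2 fell between KO2 and KO3. The means were 6.55 ± 0.715 CPM for KO and 10.2 ± 2.88 CPM for WT (n = 4 each, with SD). The log2 fold change was −0.65 (edgeR quasi-likelihood p 0.00366, Benjamini-Hochberg adjusted p 0.307, SE 0.17), a difference of −36.4%. WT1 weighed on this value, which was −0.39 without it, though the gene still passed the lower threshold. The libraries of lane A alone gave −1.03 and those of lane B alone −0.27, where it did not pass. Cntn5, at −0.46, and Cntnap5a, at −0.63, had greater fold changes on lane B. Without WT1 another member was level with Cntn4, at −0.392 against −0.389.

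Cntn6 (chromosome 6, 104492662 to 104863406), a contactin of cortical and cerebellar neurons that binds Chl1 and Notch1, was at 90.9, 58.5, 67.8 and 62.9 CPM in KO1 to KO4. In WT1 to WT4 it was at 132, 59.7, 81.7 and 73.1 CPM. In both genotypes replicate 1 was highest, and KO1 exceeded 3 of the 4 WT libraries. The log2 fold change was −0.33 (edgeR quasi-likelihood p 0.0348, Benjamini-Hochberg adjusted p 0.445, SE 0.13). Lane A alone gave −0.51 and lane B alone −0.13, and the value was −0.21 without WT1, and the gene no longer passed the lower threshold in any of these 3 fits. Cntn6 was therefore the least stable of the 4, passing in 11 of 24 alternative fits.

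Cntn5, on chromosome 9 (9634223 to 10904775), is known from auditory and visual circuits and binds a protein of the App family. It was at 55.1, 51.9, 53.0 and 55.5 CPM in KO1 to KO4 and at 87.2, 75.04, 54.0 and 61.8 CPM in WT1 to WT4. The KO libraries were nearly equal, with means of 53.9 ± 1.72 CPM for KO and 69.5 ± 14.6 CPM for WT (n = 4 each, with SD), and only WT3 reached down into the KO range. Its log2 fold change was −0.40 (edgeR quasi-likelihood p 0.0065, Benjamini-Hochberg adjusted p 0.337, SE 0.12), and it was similar on lane A (−0.38) and lane B (−0.46). The gene did not pass the lower threshold on lane A alone or with KO1 and WT1 both left out, at −0.29.

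**Figure D3:**
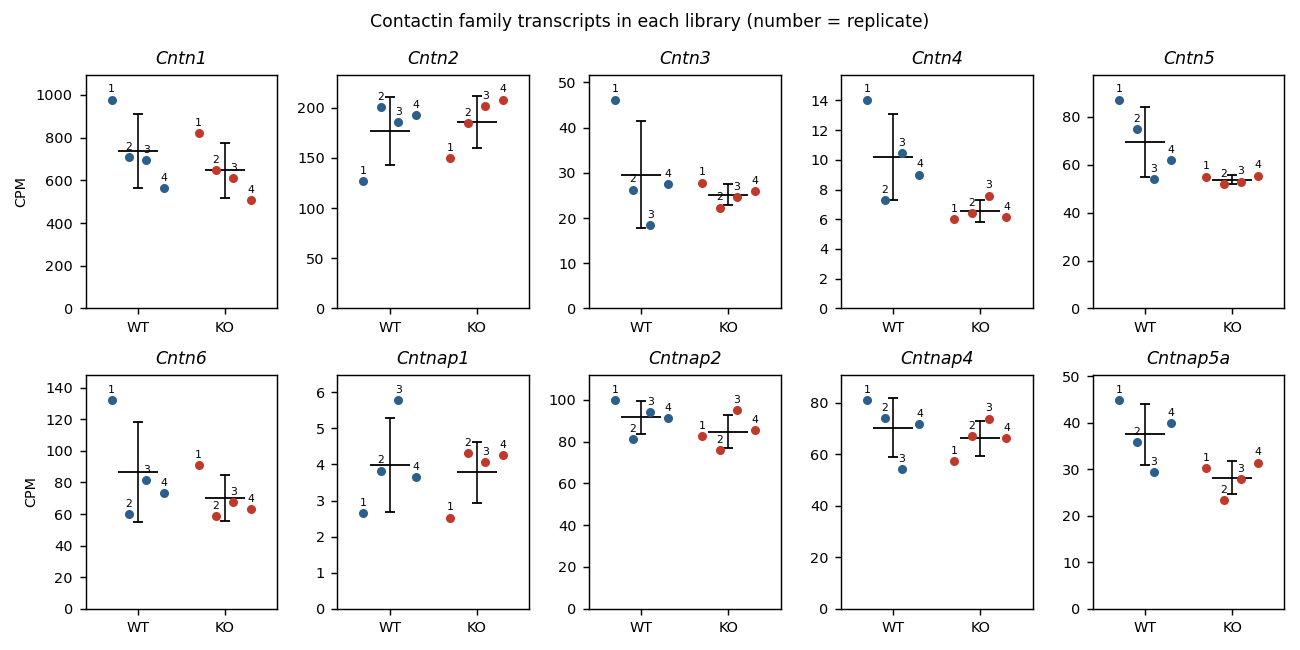
CPM of the 10 genes in each library, with replicate numbers beside the points, WT in blue and KO in red, and the mean with its SD as a black bar (n = 4 each, linear axes from 0). WT1 is the highest WT library for Cntn1, Cntn3, Cntn4, Cntn5, Cntn6, Cntnap2, Cntnap4 and Cntnap5a, and the KO points of Cntn5 sit between 51.9 and 55.5.

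Among the contactin-associated proteins, Cntnap5a was lower in KO at the lower threshold and the others were not. Cntnap5a, on chromosome 1 (115684737 to 116587323), was at 30.2, 23.3, 27.8 and 31.4 CPM in KO1 to KO4 and at 44.9, 35.8, 29.4 and 39.9 CPM in WT1 to WT4. WT3 alone lay within the KO range, below KO1 and KO4. The means were 28.2 ± 3.58 CPM for KO and 37.5 ± 6.55 CPM for WT (n = 4 each, with SD). The log2 fold change was −0.44 (edgeR quasi-likelihood p 0.00493, Benjamini-Hochberg adjusted p 0.325, SE 0.12). It was −0.30 on lane A, where it did not pass the lower threshold, and −0.63 on lane B, where edgeR gave an adjusted p of 0.0323, and 0.588% of 16835 genes were under 0.05 on that lane. The only other setting in which a member passed an adjusted threshold was DESeq2, with Cntn4 at an adjusted p of 0.0262 and Cntnap5a at 0.0486, while 1.14% of tested genes passed.

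Cntnap2 (CASPR2, chromosome 6, 45060061 to 47301393) clusters potassium channels and is also needed for neurite growth. It was at 82.6, 76.0, 95.3 and 85.4 CPM in KO1 to KO4 and 100.0, 81.2, 94.3 and 91.5 CPM in WT1 to WT4. KO2 was the lowest and WT1 the highest library, and the others were interleaved. Its log2 fold change was −0.15 (edgeR, Benjamini-Hochberg adjusted p 0.556, SE 0.086), and it shrank to −0.06 without WT1 and to −0.09 without KO2. Cntnap4 (chromosome 8, 112569798 to 112882707), known from the synapses of interneurons and dopaminergic neurons, was at 57.4, 67.2, 73.9 and 66.4 CPM in KO and 81.2, 74.2, 54.2 and 71.9 CPM in WT, and both the highest and the lowest library were WT. Its log2 fold change of −0.12 (edgeR, Benjamini-Hochberg adjusted p 0.762, SE 0.13) had an error as large as itself. Cntnap1 (chromosome 11, 101174617 to 101190724), the paranodal protein, had 83 to 276 counts and stood at 2.53, 4.31, 4.07 and 4.25 CPM in KO and 2.66, 3.83, 5.79 and 3.66 CPM in WT. The lowest library of each genotype was replicate 1, and the log2 fold change was −0.07 (edgeR, Benjamini-Hochberg adjusted p 0.895, SE 0.14), with a sign that turned in 6 of 24 alternative fits.

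Of the genes read beside the family, Cntnap5b and Cntnap5c are close paralogues of Cntnap5a. Cntnap5b ranged over 8.17 to 12.8 CPM in KO libraries and 9.36 to 22.1 CPM in WT libraries, with a log2 fold change of −0.37 (edgeR quasi-likelihood test, Benjamini-Hochberg adjusted p 0.592, SE 0.23). Cntnap5c had −0.22 (SE 0.21, adjusted p 0.741) and Cntnap3 −0.08 (SE 0.20, adjusted p 0.919, both by the same edgeR test). None of these 3 passed the lower threshold. The Cntnap5b value was −0.11 without WT1, −0.17 without KO1 and −0.59 without KO4, and that of Cntnap5c ran from −0.37 without WT4 to −0.04 without WT3. Of the 50-base stretches of annotated Cntnap5a transcripts 1.86% also occur in another gene (Cntnap5b, Cntnap5c or D17Wsu104e), so its counts are slightly uncertain for shared reads. No such stretch of Cntn1, Cntn4, Cntn5, Cntn6, Cntnap2 or Cntnap4 occurs in another annotated gene. Cntnap1 overlaps the coding gene Ccr10, and Cntn1, Cntn3, Cntn5, Cntn6, Cntnap2 and Cntnap5a overlap noncoding genes or pseudogenes in RefSeq. Some of their reads may therefore be uncertain where strand was not used. Of these overlapping genes only Rbpj-ps3, inside Cntnap2, was found by symbol among the counted genes, with 39 counts in all. Whether reads were lost to the overlaps was not tested.

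Many of the 10 genes deviated together in WT1. The median deviation of the 10 genes from their own means, in log2 CPM, was 0.496 in WT1 and −0.115, −0.217, −0.0936 and −0.0397 in KO1 to KO4, whereas the other WT libraries were at 0.0398, 0.0421 and 0.0542. WT1 was thus well above all others and the remaining WT libraries only slightly above KO. Over all tested genes the same median lay between −0.0463 and 0.0593 in every library. Without WT1 the median log2 fold change of the 10 genes was −0.13 and 3 of them passed the lower threshold, where 2.17% of all tested genes were lower in KO. With both KO1 and WT1 left out it was −0.15 and 2 passed, namely Cntn4 and Cntnap5a, against 2.03%. On lane A alone the median was −0.31 with 1 gene passing, against 0.462%, and on lane B alone −0.13 with 3, against 4.53%. With the strain code as a term, where the comparison rests on KO4 against WT2 and WT4, the median was −0.12 and 0 passed, against 1.43%.

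**Figure D4:**
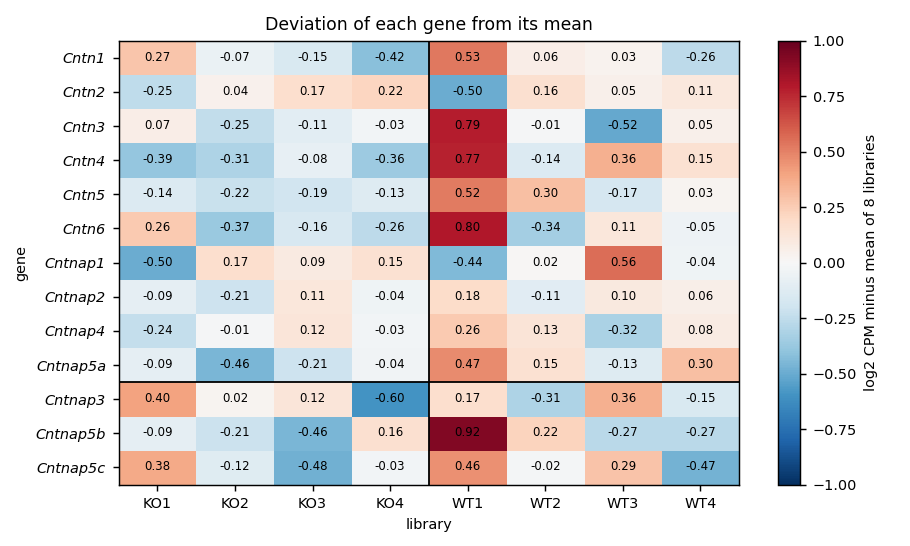
Log2 CPM of each gene in each library minus the gene's mean over the 8 libraries, from blue (below) to red (above), with the values printed and the other 3 contactin-associated genes below the line. The WT1 column is above 0 for all rows but Cntn2 and Cntnap1, at −0.50 and −0.44, and KO1 resembles it only for some genes.

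Most of the 10 genes are very long, a feature that their selection did not use, and Cntn2 and Cntnap1 are not. They include 4 over 500 kb from first to last annotated base (Cntnap2 2241 kb, Cntn5 1271 kb, Cntn4 1023 kb and Cntnap5a 903 kb), 4 between 200 and 500 kb (Cntn3 401 kb, Cntn6 371 kb, Cntnap4 313 kb and Cntn1 291 kb) and 2 under 50 kb (Cntn2 33.8 kb and Cntnap1 16.1 kb). Over the 14059 tested genes with a known span, the median log2 fold change was 0.036 in the 9824 genes under 50 kb, −0.02 in the 3329 genes of 50 to 200 kb, −0.06 in the 700 genes of 200 to 500 kb and −0.14 in the 206 genes over 500 kb. The share lower in KO at the lower threshold was 2.01%, 4.12%, 9.71% and 17.5% in these classes. Without the 4 members the class over 500 kb had the same median of −0.14 and 16.3% of 202 genes lower in KO, so the members had little weight in either value. Cntn4, Cntn5 and Cntnap5a lay below the median of that class by more than their standard error, and Cntnap2, the longest of all, lay at it. For the class over 500 kb, lane A gave a median of −0.20, lane B −0.09, and the fit without KO1 and WT1 −0.11. The share of this class lower in KO was less steady than its median, at 10.2% without a surrogate variable, 9.22% with lane and 3.4% with the strain code as a term, 1.46% on lane A and 20.4% on lane B. Calls over all genes fell too, from 574 lower in KO to 259 without a surrogate variable and 269 with lane. Under 50 kb the share went from 2.01% to 0.774% and 0.804% in these fits, so the drop was not particular to the longest class. The share of the class over 500 kb higher in KO was 1.46% with all libraries, 0% on lane A and 7.77% on lane B. On lane B calls over all genes were more numerous in both directions (763 lower and 849 higher). WT1 was also the highest library for the 206 genes, with a median deviation of 0.216 against −0.106 to 0.0703 in the others.

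**Figure D5:**
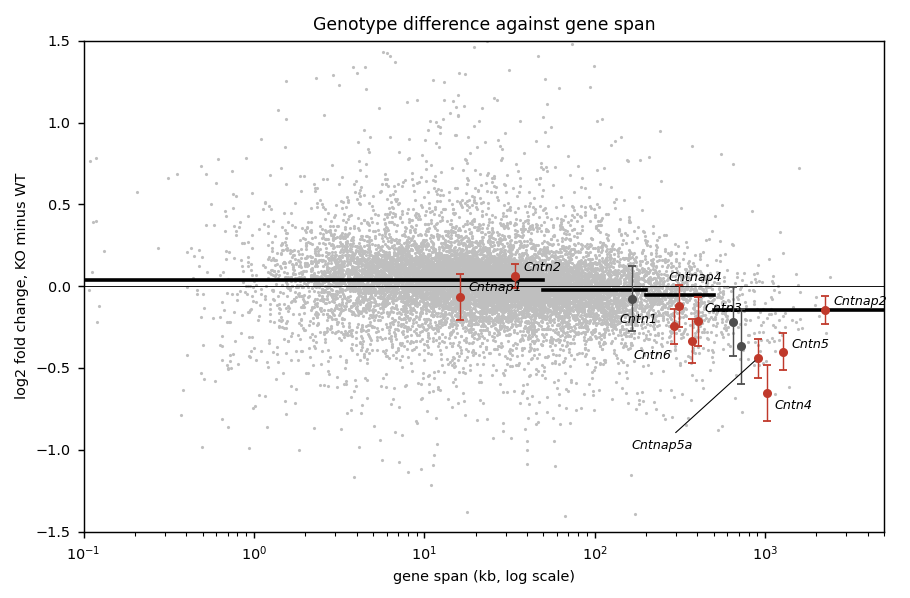
Log2 fold change of KO minus WT against the distance from the first to the last annotated base of the gene (log axis), with 14044 tested genes as grey dots and 15 more outside the axis. Horizontal bars give the median in 4 span classes, from 0.036 under 50 kb to −0.14 over 500 kb, and the 10 genes (red, named) and the other 3 contactin-associated genes (dark grey) carry their standard errors.

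The starts of Cntn5 and Cntnap2 are shown because both genes are over 500 kb long and only the first passed the lower threshold. Each run is the 250 bases before the RefSeq start (GRCm38.p6), 5′ to 3′ on the strand of the gene, and capitals mark a CCAAT box or a GC box (letters CCAAT or GGGCGG on either strand). These are chr9:10904776-10905025 on the minus strand, which also lies within the RefSeq lncRNA Gm32710, and chr6:45059811-45060060 on the plus strand.
Cntn5: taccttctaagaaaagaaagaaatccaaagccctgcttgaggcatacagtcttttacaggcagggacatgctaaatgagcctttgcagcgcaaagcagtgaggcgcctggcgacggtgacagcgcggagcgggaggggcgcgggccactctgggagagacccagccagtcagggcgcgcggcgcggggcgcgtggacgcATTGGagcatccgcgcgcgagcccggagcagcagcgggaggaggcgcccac
Cntnap2: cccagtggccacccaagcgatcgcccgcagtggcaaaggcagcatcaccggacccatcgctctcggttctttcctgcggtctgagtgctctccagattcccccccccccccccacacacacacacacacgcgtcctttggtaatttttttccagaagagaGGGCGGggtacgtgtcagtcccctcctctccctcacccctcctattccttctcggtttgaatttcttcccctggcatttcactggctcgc
The Cntn5 window holds 24 CpG dinucleotides at 64.8% GC and the Cntnap2 window 13 at 59.6% GC, against medians of 6 and 52% over 27025 promoter windows of this length. Capitals mark 1 CCAAT box, read on the opposite strand, in Cntn5 and 1 GC box in Cntnap2, motifs that 34.5% and 33% of all windows hold. Of the 10 genes 7 had a window. Among these no TATA box (TATAAA, 13% of all windows), E box (CACGTG, 6.04%) or cyclic AMP response element (TGACGTCA, 1.6%) was found on either strand. Those of Cntn2, Cntn3, Cntn4 and Cntn6 lie inside the annotated gene. The Cntn3 window held 0 CpG at 26.4% GC, that of Cntn4 2 at 44.4% and that of Cntn6 3 at 45.2%, while Cntn1 and Cntn2 had 7 at 53.6% and 10 at 61.2%.

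The partners of the family were read from lists of known ligands, receptors and neighbours at the membrane. In the L1 family 1 of 4 genes passed the lower threshold, Nrcam, at −0.31 (SE 0.13, p 0.0379), lower in KO. Among the receptor tyrosine phosphatases it was 1 of 3, Ptprg, a receptor for several contactins, at −0.25 (SE 0.083, p 0.013). Among Tnr, Notch1 and the amyloid precursor family it was 1 of 5, App, the binding partner of Cntn4, at −0.25 (SE 0.089, p 0.0177). Of 9 genes of the potassium channel complex that Cntnap2 organises 2 passed, the channel subunit Kcna4 at −0.34 (SE 0.099, p 0.00705) and the secreted Lgi1 at −0.29 (SE 0.11, p 0.0232). Of the 5 cytoskeletal linkers that bind the tails of contactin-associated proteins or act below contactins (Epb41l1, Epb41l2, Epb41l3, Cask and Fyn) 0 passed, with fold changes from −0.05 to 0.06. These counts are to be read against the 3.53% of all tested genes that were lower in KO at this threshold. That share was 9.71% for genes of 200 to 500 kb and 17.5% for genes over 500 kb. The spans of the listed genes were not compared. Most of the calls were not steady. Of the 24 alternative fits Nrcam passed in 11, Ptprg in 10, App in 13, Lgi1 in 14 and Kcna4 in 20. The L1 family had 0 genes past the lower threshold without any 1 of KO1, KO2, KO3, WT1, WT2 and WT4, and the Lgi1 value was −0.17 without WT1.

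Other adhesion molecules of the immunoglobulin superfamily leaned the same way. Of 15 genes 14 were below 0, with a median of −0.16, and 3 passed the lower threshold, all lower in KO. The same shares over tested genes apply here, and the spans of these 15 genes were not compared either. Ncam2, an axonal adhesion molecule, was at 66.6, 59.3, 54.8 and 69.7 CPM in KO1 to KO4 and 122, 89.2, 71.4 and 85.1 CPM in WT1 to WT4, so that every KO library was below every WT library. Its log2 fold change was −0.58 (edgeR quasi-likelihood p 0.000707, Benjamini-Hochberg adjusted p 0.219, SE 0.12), close to that of Cntn4. Opcml, a lipid-anchored molecule, had −0.34 (SE 0.10, p 0.00724) and Alcam −0.28 (SE 0.075, p 0.00443). Opcml was at 794 CPM in WT1 and at 439 to 492 CPM in the other WT libraries, within the 338 to 528 CPM of KO, and its value was −0.26 without WT1, −0.20 without KO1 and WT1 and −0.15 on lane B. The 3 genes passed the lower threshold in 22, 17 and 19 of the 24 alternative fits. With 1 surrogate variable and all 8 libraries, no gene of these 6 partner and adhesion lists was higher in KO at the lower threshold or passed the adjusted threshold in edgeR. Ncam2 passed it in 4 alternatives, with edgeR adjusted p of 0.0123 with 3 surrogate variables, 0.0066 on lane B and 0.0324 without KO4, and 0.00181 in DESeq2. On lane B 2 of the 15 genes passed it. Without WT3 1 of the 15 passed it, and 7 were lower in KO at the lower threshold, where 783 of 16425 tested genes were.

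Genes whose deviations over the 8 libraries were most like those of the 4 lower members were found by the root mean square difference of mean-centred log2 CPM. For Cntn4 they were ENSMUSG00000095193, which has no symbol in the tables used, Il1rapl1 and Nrp1, at 0.135, 0.143 and 0.147, against a median of 0.447 over all tested genes. For Cntn5 they were Grin2b, Sc5d and Epha5, at 0.0802, 0.0849 and 0.0865 against 0.350. Those of Cntn6 were Mctp1, Pabpc5 and Nalcn, at 0.132, 0.133 and 0.144 against 0.427. Those of Cntnap5a were Spink10 and 2 identifiers without a symbol, ENSMUSG00000112229 and ENSMUSG00000103497, at 0.0853, 0.0901 and 0.101 against 0.368. These lists of 3 held no gene in common and no contactin.

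Cell type markers were read as a check of the cultures. Neuronal markers were abundant in every library, with the 7 pan-neuronal genes summing to 7540 to 8610 CPM for KO and 7640 to 8720 CPM for WT. This sum is carried by Map2, Dcx and Stmn2 and hides differences of KO1 and WT1 from the rest in both directions. Tubb3, a neuronal tubulin, was at 299 CPM in KO1 and 252 CPM in WT1 against 725 to 1340 CPM in the other 6 libraries. Rbfox3, a marker of mature neurons, was at 24.2 and 23.2 CPM against 38.5 to 72.2 CPM. Map2, in contrast, was highest in KO1 and WT1, at 3580 and 3880 CPM against 2830 to 3160 CPM. So were Syt1, at 915 and 1020 against 556 to 843 CPM, and Dcx, at 2000 and 1950 against 1430 to 1850 CPM. Snap25 and Stmn2 did not set the pair apart. The 8 markers of glutamatergic neurons summed to 879 to 1110 CPM for KO and 873 to 1100 CPM for WT, and 1 of them, Slc17a7, was lower in KO at the lower threshold (−0.32). The 12 interneuron markers summed to 265 to 460 and 255 to 397 CPM in KO and WT, the 8 astrocyte markers to 764 to 1440 and 728 to 1090 CPM, and the 7 microglia markers to 2.55 to 29.3 and 2.98 to 12.1 CPM, with 0 genes of these lists past the lower threshold. All 8 astrocyte markers had fold changes above 0, up to 0.62 for Aqp4 (edgeR p 0.121) and 1.94 for Gfap (p 0.136), and so did 4 of the 5 microglia markers tested, from 1.15 for Csf1r (p 0.148) to 1.597 for Trem2 (p 0.0876), with Aif1 at −0.21. On lane B 3 astrocyte markers (2 at the adjusted threshold), 7 interneuron and 2 microglia markers were higher in KO at the lower threshold, and on lane A 0 were. Without KO4 it was 3 astrocyte, 1 interneuron and 4 microglia markers. The directions were not steady either. Leaving out 1 library gave 4 (without KO2) to 8 (without KO1 or KO4) astrocyte markers above 0, and 2 or 3 surrogate variables gave 4. The microglia median of 1.29 ran from 0.55 without KO3 to 1.85 without WT4, and was 0.23 with 2 surrogate variables. Of the interneuron markers 8 of 12 were above 0, with a median of 0.25, and 5 were higher at the lower threshold with 3 surrogate variables, 3 without KO1 and 3 without WT3, where 1 also passed the adjusted threshold. With the strain code as a term 3 astrocyte, 1 microglia and 3 endothelial or fibroblast markers were lower, and 1 interneuron and 1 glutamatergic marker were higher. Of all tested genes, 5.04% were higher in KO at this threshold on lane B, 0.129% on lane A, 3.35% without KO4, 2.65% with 3 surrogate variables, 2.35% without KO1, 3.01% without WT3 and 0.479% with the strain code. The 6 genes of oligodendrocyte precursors summed to 535 to 625 and 502 to 603 CPM, also with 0 genes past it. The 5 hippocampal markers summed to 109 to 182 CPM for KO and 129 to 154 CPM for WT, with Prox1 higher at the lower threshold (0.34). Progenitor markers (7 genes) and those of endothelial cells and fibroblasts (7 genes) summed to 231 to 261 and 12.1 to 21.3 CPM in KO, and WT libraries had 207 to 261 and 6.23 to 35.4 CPM. Tmem119 of microglia and Cldn5 of endothelial cells were under 0.1 CPM everywhere. The part of these markers and of cell composition in the lower levels of the contactins was not tested.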

How the data were processed

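The authors deposited raw counts of reads for each Ensembl gene and library, with no replicates pooled. Per the labels and the study's methods, reads of a stranded poly-A kit were trimmed with Cutadapt 1.10, ribosomal reads were discarded, the rest were aligned to mm10 with STAR 2.5.3a, and those with a unique alignment were assigned to genes by HTSeq 0.6.1p1 in union mode. Whether strand was used is not stated, and read length is given differently in the labels and methods. Reads that fit several places were not counted, which lowers genes with close copies.

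The genotype comparison was fitted by edgeR 4.0.16 under R 4.3.3 (filterByExpr by genotype, TMM scaling, robust quasi-likelihood F test, Benjamini-Hochberg adjustment over 16272 genes, threshold 0.05) with 1 surrogate variable from svaseq (sva 3.50.0). A standard error is the absolute log2 fold change divided by the square root of F. CPM are counts per 1e+06 counts of the library, and deviations were computed on log2 CPM with a pseudocount of 0.5. DESeq2 1.42.0, limma 3.58.1 (voom), other scalings, filters, covariates, single lanes and fits without single libraries served as alternatives. The procedure was tested on simulated data. Exon lengths came from a GENCODE annotation of NCBIM37, by Ensembl identifier, and positions, spans and promoter windows from RefSeq on GRCm38.p6, by symbol. Of the identifiers 23260 had a symbol and 20847 a position, and 86.4% of tested genes a span.

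Genes named were the 10 members, Cntnap3, Cntnap5b and Cntnap5c, up to 3 genes with the smallest p of each partner list past the study's lower threshold, the 3 genes nearest in profile to each member past it, and Nuak1. Chl1 and Gm15631 were named for their position, and marker genes past the lower threshold or near 0 were named after their values were seen. The members and lists were chosen with earlier results of these data known. The result of 1 other marker list is not reported here.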

Additional observations from a re-analysis of the deposited data

Results flagged for a closer look

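The highest and lowest library of every group of 4 were compared with the next one by Dixon's ratio of gap to range, at its 95% critical value. Of 26 groups (the 10 members and the other 3 contactin-associated genes in each genotype) 1 exceeded that value, and chance gives about 1 in 20. It was Cntnap1 in KO1, at 2.53 CPM against 4.07 to 4.31 CPM in the other KO libraries, with a gap of 0.865 of the range. WT1, which stands apart with KO1 on the first principal component, was likewise the lowest WT library for this gene.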

How the results depend on the processing

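Over the 24 alternatives, 228 of the 240 fold changes of the 10 genes kept their sign and their side of the adjusted threshold. The number of members lower at the lower threshold was 0 with the strain code as a term, 1 on lane A and 2 without KO1 and WT1, and members past the adjusted threshold numbered 2 in DESeq2 and 1 on lane B. Leaving out 1 library gave 3 to 5 members lower and medians of −0.28 to −0.13. Cntn2 reversed to −0.095 on lane B. Cntnap1 reversed under 2 surrogate variables to 0.025, under 3 to 0.0011, to 0.17 with the strain code, 0.088 on lane B, and 0.022 and 0.042 without WT1 and without WT3, within −0.12 to 0.042 when 1 library was left out. Cntnap4 reversed to 0.014 without KO1 and WT1 and to 0.016 without KO1, within −0.25 to 0.016 when 1 library was left out. Cntnap3 reversed to 0.018 with 2 surrogate variables, 0.25 on lane B, and 0.081 and 0.12 without KO4 and WT3, within −0.18 to 0.12 without 1 library, Cntnap5b to 0.14 with the strain code, and Cntnap5c to 0.046, 0.0050 and 0.19 with 2 or 3 surrogate variables or the strain code.

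Over all genes, 8 passed the adjusted threshold in edgeR, against 4 without a surrogate variable, 4 with 2, 122 with 3, 4 with lane and 1 with strain code as a term, 45 without a filter, 2 with 10 counts required in every library, 185 in DESeq2, 0 on lane A (96 at an unadjusted p under 0.05), 99 on lane B, 3 without KO1 and WT1, and 3 to 91 without 1 library. The lower threshold, with 936 genes, gave 396 without a surrogate variable, 452 with lane, 310 with strain code, 1488 without a filter, 96 on lane A, 1612 on lane B, 555 without KO1 and WT1, and 606 to 1403 without 1 library. With exonic length in place of span the median of the 3612 genes with the longest exons was −0.028, a far wider class than the 206 genes over 500 kb, so that the sizes are not comparable. The causes were not tested.

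Replicate numbers do not pair the libraries, since same-numbered KO and WT libraries had correlations of deviations of 0.87, 0.06, 0.34 and 0.11, and not every library correlated best with its own number. The replicate block gave 3 genes past the adjusted threshold, also 3 with the surrogate variable, and 4 members lower in either fit. A fold change within a lane rests on 2 libraries of each genotype, and CPM of Cntn4 and Cntnap1 rest on 83 to 499 counts.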
